A study of Mus musculus with 96 samples.

Results

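The genes described here are the mouse receptors for cytokines and for ligands of the tumour necrosis factor (TNF) family, followed in a macrophage-like cell line after treatment with bacterial lipopolysaccharide (LPS), interferon gamma (IFNG), a nucleotide analogue and their combinations. They were taken by name, as every gene whose symbol on the array begins with Il and a number followed by r, with Tnfrsf and a number, or with Ifnar or Ifngr, leaving out the antagonist Il1rn. The rule found 50 of the 10698 named genes on the array, of which 29 are interleukin receptor genes, 17 are TNF receptor family genes and 4 are interferon receptor genes. Of these, 47 had enough values to be tested.

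A cytokine receptor is usually a pair or trio of membrane chains: a specific chain binds the ligand and a shared chain completes the complex. Type I and type II cytokine receptors, among them those for interleukins and interferons, have no enzyme of their own and signal through bound JAK kinases and STAT factors, whereas the IL-1 and IL-18 receptors signal through MyD88. TNF family receptors bind trimeric ligands and recruit TRAF adapters or, where they carry a death domain, caspase-activating complexes. Macrophages use these receptors to tune their state: IFNG primes them for microbial killing, IL-4 and IL-13 direct them to another programme, and IL-10 restrains them.

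The RNA came from RAW 264.7, a line of mouse macrophage-like cells, so the results describe 1 cell line. Cells had been given LPS with IFNG, LPS with 2-methyl-thio-ATP (2MA, an agonist of purine receptors), IFNG alone at 5 nM, 2MA alone at 500 uM or LPS alone, and each was compared with untreated cells cultured for the same time. LPS was given as 100 ng, with no volume stated, together with LPS-binding protein at 100 pM. Cells were harvested after 1, 2 and 4 h, and for LPS alone also after 30 minutes, which gave 16 treatment-time groups. In 1 sample the description gives the 2MA dose in nM, whereas the labels of its dyes give it in uM. Every group holds 3 sets, each with 2 two-colour arrays on which the dyes were exchanged, or 96 arrays in all. Nothing in the labels tells whether each set was its own culture or whether treatments of 1 set shared their untreated RNA. The p-values therefore reflect only how much the sets varied, and that variation could be technical.

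All values are the authors' deposited log2 ratios turned to treated over untreated, so that 1 unit is a 2-fold difference in RNA. A set value is the mean of its 2 arrays, and each array gave between 13508 and 15004 ratios other than 0. The ratios carry no level, and a low ratio in such a culture cannot tell fewer cells with the transcript from less RNA per cell. Tnf, the ligand of the best known receptors in the set and a standard target of LPS, was above 0 on 6 of 6 arrays in every group. Differences were tested with limma across 11593 genes and unnamed probes, with Benjamini-Hochberg adjustment, and a change is one with an adjusted p below 0.05. The median standard error of a response was 0.113.

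A response in at least 1 of the 16 groups was found for 24 of the 47 receptors (51.1%), against 49.4% of all genes tested, and in at least 2 groups for 22 (46.8%), against 37.6%. Of the 24, 16 only rose, 6 only fell (Ifnar2, Ifngr1, Il10rb, Il6ra, Tnfrsf22 and Tnfrsf23), and Ifnar1 and Il12rb1 did both in different groups. The median response of the 47 receptors lay between -0.0356 and 0.0783 in every group, beside medians of all genes between -0.0142 and 0.00805. Of the 24, Tnfrsf1b, Il13ra1, Il4ra, Il15ra, Il7r, Il17rc, Tnfrsf12a, Tnfrsf22 and Tnfrsf23 rest on 1 tested probe each.

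In cells given LPS with IFNG, 7, 21 and 19 receptors changed at 1, 2 and 4 h (14.9%, 44.7% and 40.4%), against 7.62%, 20.8% and 34% of all genes. In cells given LPS with 2MA the counts were 5, 13 and 17 (10.6%, 27.7% and 36.2%), against 5.45%, 17.8% and 33.4%. IFNG alone changed 3, 8 and 10 (6.38%, 17% and 21.3%), against 1.13%, 3.43% and 12.3%. The shares in the receptors were thus above the background at 1 and 2 h in these treatments and at 4 h of IFNG, and nearer to it at 4 h in both combinations. 2MA alone changed 1, 4 and 3 (2.13%, 8.51% and 6.38%), against 1.41%, 1.33% and 2% of all genes. None of these 8 calls held without set 1, where 0.173%, 0.104% and 0.112% of all genes passed. LPS alone changed 6, 13 and 15 at 1, 2 and 4 h (12.8%, 27.7% and 31.9%), against 5.61%, 16% and 28.6%. At 30 minutes of LPS, 0 of 47 passed in limma and 0 had an unadjusted p below 0.05, against 1.04% of all genes called. At 4 h of LPS with IFNG the changed receptors were 14 that rose and 5 that fell, whereas of all genes 15.2% rose and 18.8% fell.

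**Figure D1:**
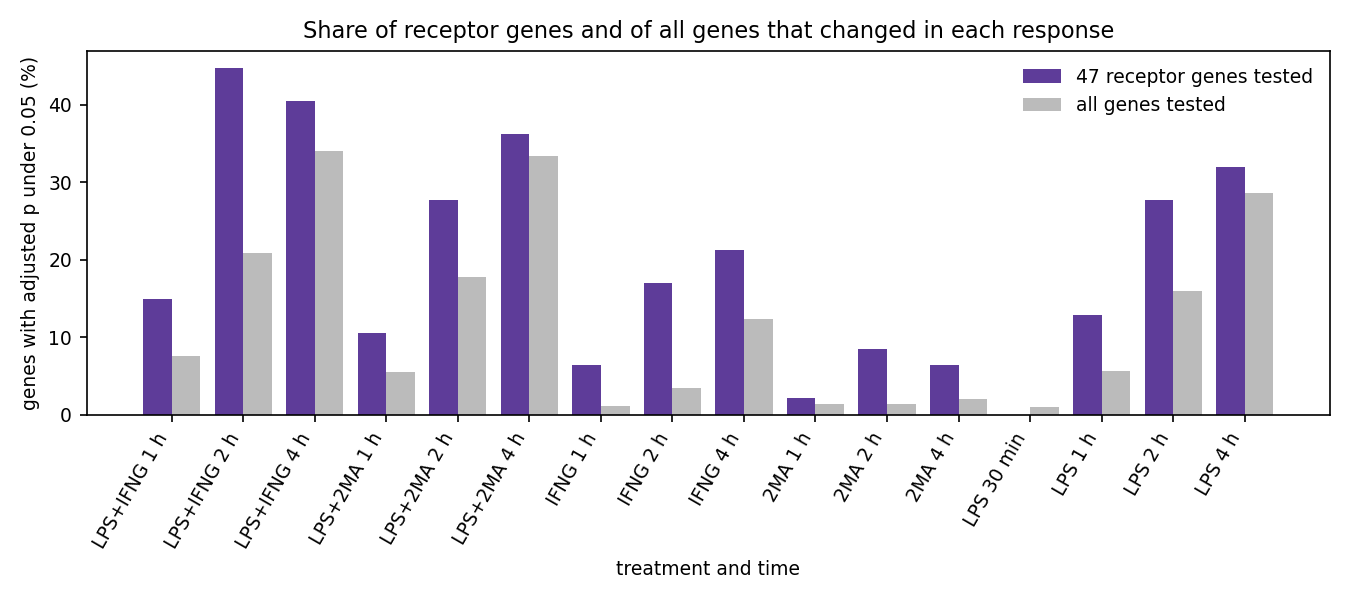
Share of genes called per group, in percent (vertical axis), for the 47 tested receptors and for all genes and probes tested, with the treatment-time groups along the horizontal axis. The receptors' share is above that of all genes at 1 and 2 h of LPS with IFNG (14.9% and 44.7% against 7.62% and 20.8%) and close to it at 4 h of LPS (31.9% against 28.6%).

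**Figure D2:**
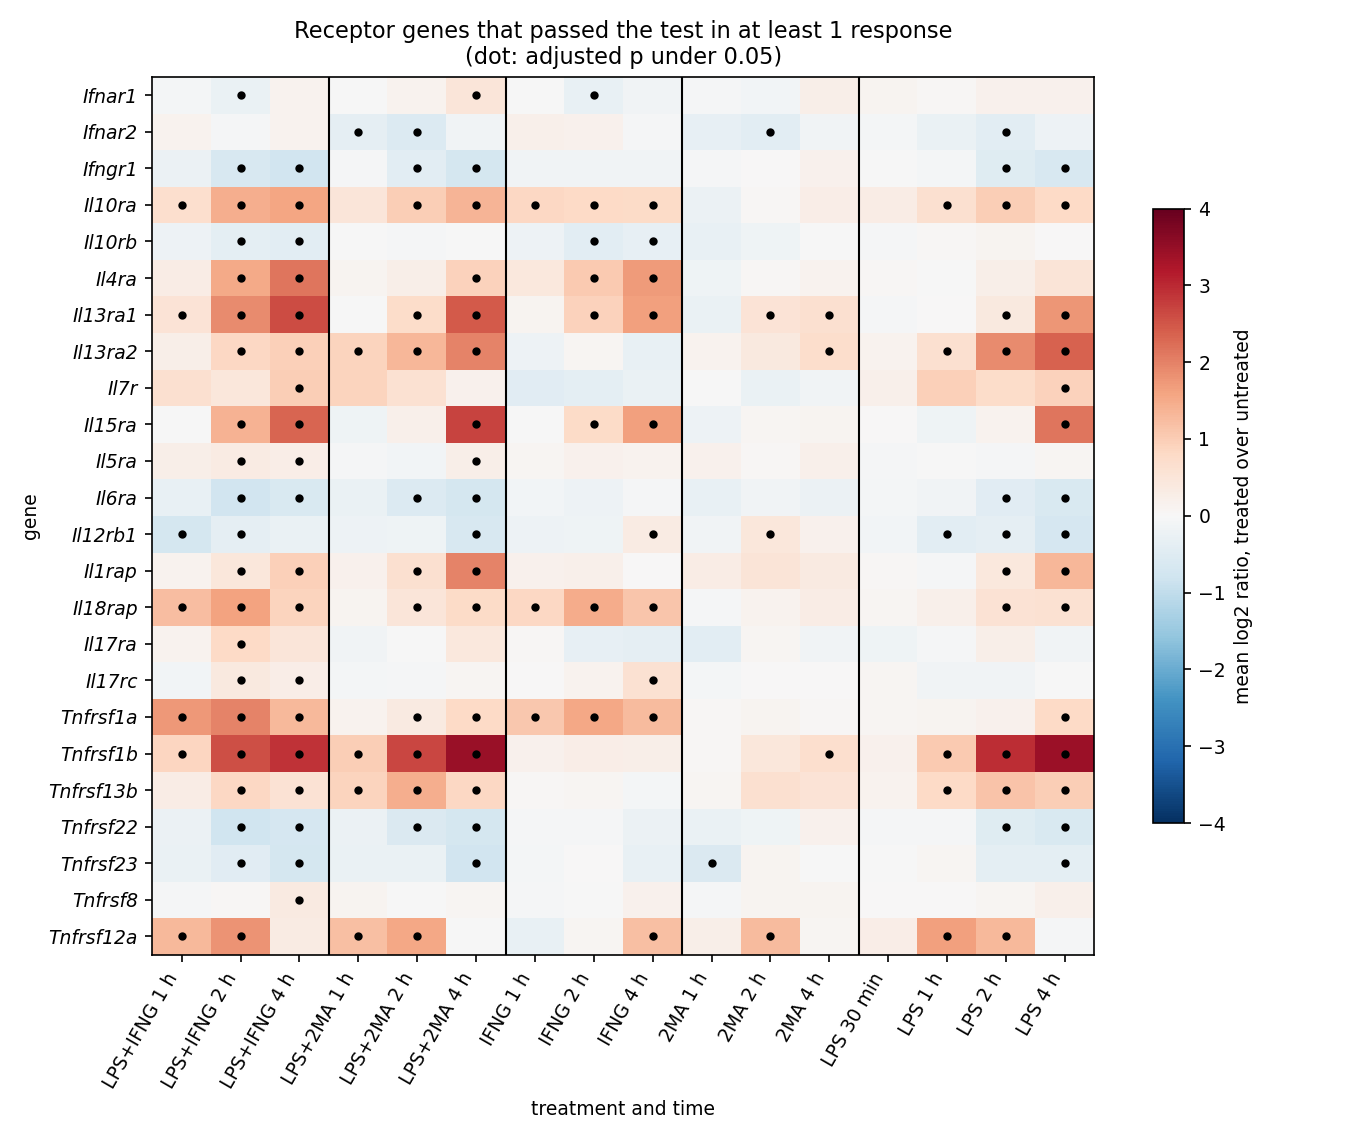
Mean log2 ratio of treated over untreated cells (colour) for the 24 receptors called in at least 1 group, with groups in columns and dots marking an adjusted p below 0.05. Tnfrsf1b, Il13ra1 and Il15ra carry the strongest colours at 4 h, and Tnfrsf22, Il6ra and Ifngr1 are below 0 at 2 and 4 h wherever LPS was given.

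Both receptors for TNF were raised at 4 h of LPS, but they differed in size, timing and response to IFNG. Tnfrsf1a (TNF receptor 1, which carries a death domain) rose early with IFNG, and with LPS alone it passed only at 4 h. Tnfrsf1b (TNF receptor 2, which recruits TRAF2) rose strongly with LPS and passed at no time with IFNG alone. Because these genes and Il13ra2 answered IFNG and LPS differently while Il13ra1 rose with both, the 250 bases before their start sites are shown. They are RefSeq sequences of build GRCm38.p6, 5′ to 3′ on the strand of the gene: Tnfrsf1a at chr6:125349473-125349722 (plus strand), Tnfrsf1b at chr4:145246871-145247120 (minus strand), Il13ra1 at chrX:36111858-36112107 (plus strand) and Il13ra2 at chrX:147429193-147429442 (minus strand). Capitals mark matches to the STAT-type element GAS (TTCNNNGAA) and to the core of the interferon-stimulated response element, ISRE (GAAA, any 2 bases, then GAAA again), searched on both strands.
Tnfrsf1a: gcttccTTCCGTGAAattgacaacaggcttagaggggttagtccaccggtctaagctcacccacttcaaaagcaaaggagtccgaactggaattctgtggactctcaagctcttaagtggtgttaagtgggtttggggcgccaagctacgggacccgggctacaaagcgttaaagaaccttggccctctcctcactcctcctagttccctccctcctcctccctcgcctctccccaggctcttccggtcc
Tnfrsf1b: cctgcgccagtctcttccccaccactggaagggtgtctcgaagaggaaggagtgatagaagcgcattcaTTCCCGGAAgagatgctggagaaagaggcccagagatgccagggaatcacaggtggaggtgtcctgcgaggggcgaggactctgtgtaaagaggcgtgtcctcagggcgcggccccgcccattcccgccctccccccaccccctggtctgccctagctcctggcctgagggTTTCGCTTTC
Il13ra1: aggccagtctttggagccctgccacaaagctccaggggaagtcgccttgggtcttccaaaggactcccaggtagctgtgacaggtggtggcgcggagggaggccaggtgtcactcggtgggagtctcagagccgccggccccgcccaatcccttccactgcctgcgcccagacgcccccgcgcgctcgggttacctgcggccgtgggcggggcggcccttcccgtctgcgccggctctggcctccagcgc
Il13ra2: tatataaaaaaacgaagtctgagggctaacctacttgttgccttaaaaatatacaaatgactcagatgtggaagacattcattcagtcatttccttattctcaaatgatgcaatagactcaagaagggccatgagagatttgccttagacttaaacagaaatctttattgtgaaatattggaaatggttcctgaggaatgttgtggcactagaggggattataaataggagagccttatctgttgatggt
Tnfrsf1a has a GAS match, TTCCGTGAA, 244 bases before its start, and Tnfrsf1b has TTCCCGGAA 181 bases before and an ISRE core match on the other strand, TTTCGCTTTC, 10 bases before. Neither motif is in the windows of Il13ra1 and Il13ra2. An NF-kB-like motif (GGG, any 5 bases, then CC, both strands, matches may overlap) was found 3 times in Tnfrsf1b, 1 time in Tnfrsf1a, 3 times in Il13ra1 and 0 times in Il13ra2. Over 47 windows of the 41 receptors with a RefSeq promoter, 9 hold GAS (19.1%), 2 the ISRE core (4.26%) and 25 the NF-kB motif (53.2%), beside 7.02%, 2.98% and 45.8% of all 32851 windows. These matches are letters in a window and not binding sites.

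Tnfrsf1a rose in every group that held IFNG. With LPS and IFNG the 3 sets gave 2.09, 1.41 and 1.67 at 1 h and 2.08, 1.93 and 1.98 at 2 h (mean 2.00 ± 0.07, SD, n = 3, a 3.99-fold rise, adjusted p = 1.64e-17), and 1.08, 1.25 and 1.54 at 4 h. With IFNG alone they gave 1.17, 1.21 and 0.87 at 1 h, 1.62, 1.56 and 1.47 at 2 h (mean 1.55 ± 0.08, adjusted p = 1.46e-13) and 1.18, 1.07 and 1.58 at 4 h. With LPS alone the sets gave 0.19, 0.18 and -0.02 at 1 h, 0.18, 0.31 and 0.03 at 2 h and 0.84, 0.87 and 0.67 at 4 h, the only time at which LPS alone passed the test (mean 0.79 ± 0.11, adjusted p = 3.56e-07). At 1 and 2 h every set with IFNG was above every set with LPS alone. Both Tnfrsf1a probes gave this order, with 1.58 and 1.52 at 2 h of IFNG against 0.19 and 0.16 at 2 h of LPS.

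Tnfrsf1b was the most strongly raised receptor of the 47 at 4 h of LPS. With LPS and IFNG it had 3.12, 2.68 and 2.84 at 4 h (mean 2.88 ± 0.22, SD, n = 3, adjusted p = 9e-21), and with LPS and 2MA it had 3.36, 3.36 and 3.63 (mean 3.45 ± 0.16, adjusted p = 9.42e-23). With LPS alone the sets gave 0.92, 1.12 and 1.14 at 1 h, 3.26, 2.82 and 2.79 at 2 h, and 3.48, 3.53 and 3.26 at 4 h (mean 3.42 ± 0.14, a 10.7-fold rise, adjusted p = 2.37e-22). The rise was thus present in all sets from 1 h. IFNG alone gave 0.46, -0.01 and 0.23 at 4 h, which did not pass (mean 0.23, adjusted p = 0.323). 2MA alone gave 1.01, 0.48 and 0.53 at 4 h (mean 0.67, adjusted p = 0.0019), and without set 1 the mean was 0.50 with an adjusted p of 0.164. Tnf itself averaged 3.04 ± 0.81 with LPS and IFNG, 3.61 ± 0.80 with LPS and 2MA, 1.42 ± 0.42 with IFNG and 3.19 ± 0.57 with LPS at 4 h (SD, n = 3 each).

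**Figure D3:**
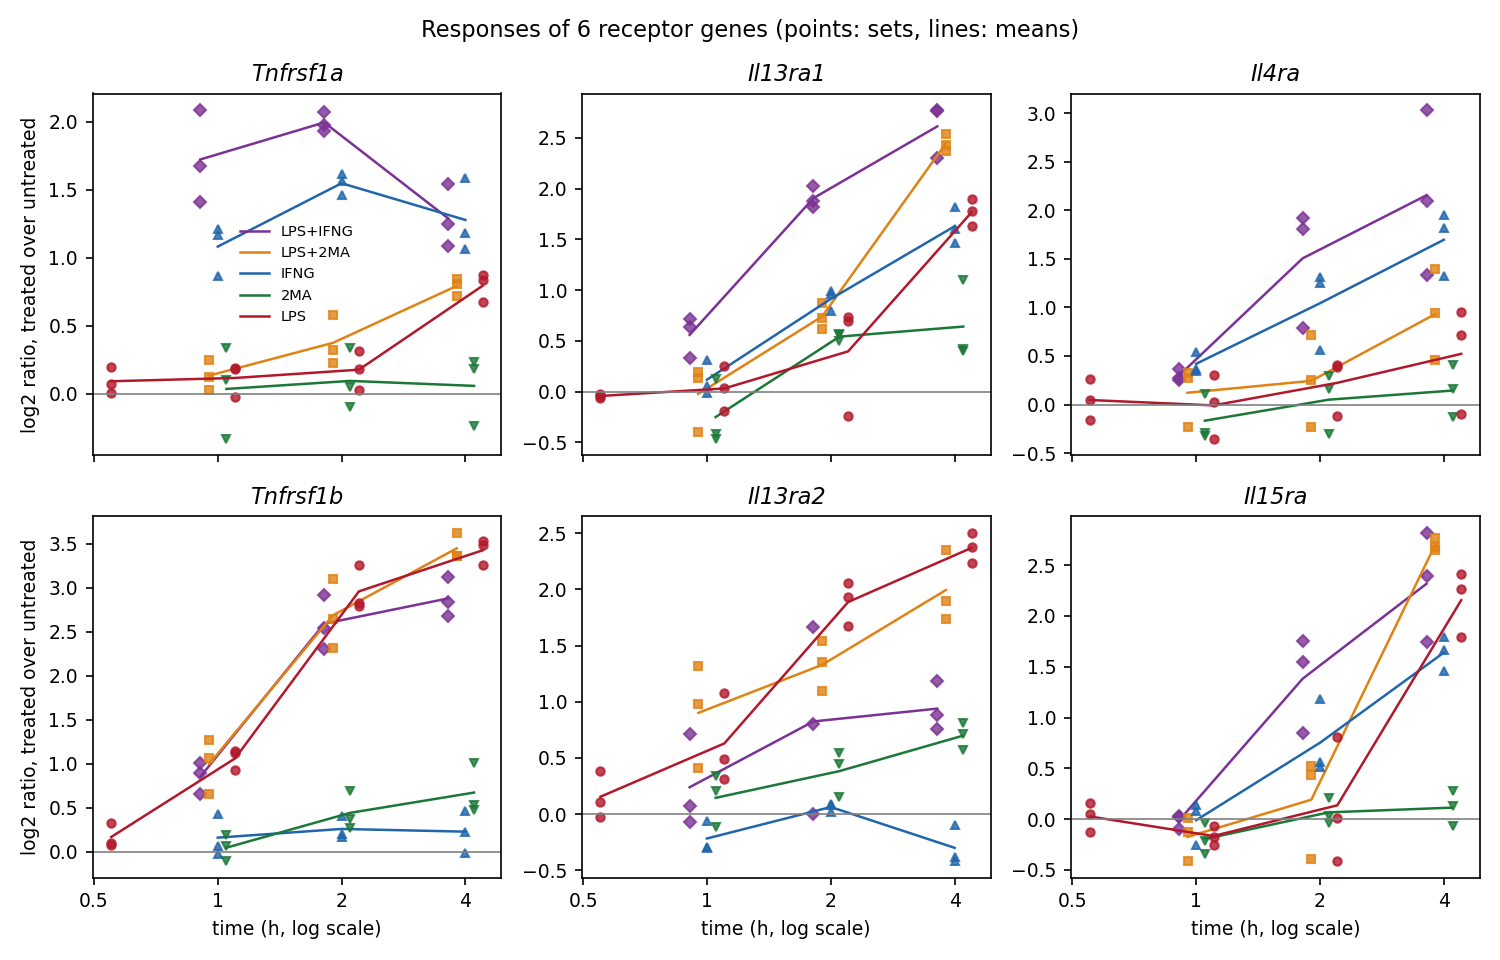
Log2 ratio of treated over untreated cells (vertical axis) against time in hours on a log axis, for Tnfrsf1a, Tnfrsf1b, Il13ra1, Il13ra2, Il4ra and Il15ra, with points for sets and lines for the means of each treatment, shifted sideways so that treatments do not cover each other. Tnfrsf1a reaches 1.55 at 2 h of IFNG where LPS is at 0.18, Tnfrsf1b reaches 3.42 at 4 h of LPS where IFNG is at 0.23, and Il13ra2 stays near 0 with IFNG alone.

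The 3 chains of the IL-4 and IL-13 receptors all rose with LPS and IFNG at 4 h, but each had its own dependence on the stimulus. Il4ra binds IL-4 and pairs with Il13ra1 in the receptor that also takes IL-13, and Il13ra2 binds IL-13 tightly and is often described as a decoy. Il13ra1 rose with both stimuli, Il4ra mainly where IFNG was present and Il13ra2 where LPS was present.

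Il13ra1 had 2.76, 2.30 and 2.77 at 4 h of LPS with IFNG (mean 2.61 ± 0.27, SD, n = 3, a 6.12-fold rise, adjusted p = 7.88e-19) and 2.54, 2.43 and 2.37 with LPS and 2MA (mean 2.45 ± 0.08). IFNG alone gave 1.47, 1.60 and 1.82 (mean 1.63 ± 0.18, adjusted p = 4.24e-12) and LPS alone 1.90, 1.78 and 1.64 (mean 1.77 ± 0.13, adjusted p = 1.19e-13). All 4 treatments were above 1 in every set, and the sets of both combinations lay above all sets of the single stimuli. 2MA alone gave a smaller rise, of 0.54 at 2 h (adjusted p = 0.0299) and 0.64 at 4 h (adjusted p = 0.00559). Without set 1 the means were 0.53 and 0.41, and neither call held, with adjusted p values of 0.835 and 0.64.

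Il4ra had 2.10, 1.33 and 3.03 at 4 h of LPS with IFNG (mean 2.15 ± 0.85, SD, n = 3, adjusted p = 1.8e-10) and 1.95, 1.32 and 1.81 with IFNG alone (mean 1.70 ± 0.33, adjusted p = 2.14e-07). LPS with 2MA gave 0.94, 0.46 and 1.39 (mean 0.93, adjusted p = 0.000835), and LPS alone 0.72, -0.10 and 0.95 (mean 0.52, adjusted p = 0.078). Set 2 was the lowest in each of these groups, and the sets with IFNG did not overlap those with LPS alone. At 2 h the means were 1.5 with LPS and IFNG (adjusted p = 1.11e-06), 1.04 with IFNG (adjusted p = 0.00183) and 0.22 with LPS. Without set 1 the 2 h response to IFNG had an adjusted p of 0.28, and without set 3 the 4 h response to LPS with 2MA had 0.0545. With sets of the same number and time as a block in limma, the 4 h response to LPS alone passed (adjusted p = 0.0219).

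Il13ra2 rose with LPS and passed at no time with IFNG alone. LPS with IFNG gave 0.81, 0.00 and 1.67 at 2 h and 1.18, 0.76 and 0.88 at 4 h (mean 0.94 ± 0.22, SD, n = 3, adjusted p = 3.87e-05), and LPS with 2MA gave 1.90, 1.73 and 2.35 at 4 h (mean 1.99 ± 0.32, adjusted p = 4.57e-12). IFNG alone gave -0.10, -0.38 and -0.42 at 4 h and lay between -0.30 and 0.09 at 1 and 2 h. LPS alone gave 1.93, 2.06 and 1.68 at 2 h and 2.37, 2.23 and 2.50 at 4 h (mean 2.37 ± 0.14, a 5.17-fold rise, adjusted p = 5.3e-14). At 4 h the LPS sets thus lay above every set with LPS and IFNG. With 2MA alone the 4 h mean was 0.70 (adjusted p = 0.0263, and 0.669 without set 1). At 2 h of LPS with IFNG the spread between sets was as large as the mean, and the adjusted p was 0.0537 without set 1 and 0.07 without set 3. Both Il13ra2 probes rose at 4 h of LPS, by 2.25 and 2.49.

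Some receptors are grouped here by their use of the common gamma chain of the IL-2 family, which Il4ra can use as well. Among them Il15ra rose and Il7r gave a response that differed between sets. Il2ra, Il2rb, Il9r and Il21r changed in no group, whereas 49.4% of all genes changed in at least 1. Il15ra encodes the chain that holds IL-15 at the cell surface and presents it to neighbouring cells. At 4 h it had 2.82, 1.74 and 2.39 with LPS and IFNG (mean 2.32 ± 0.54, SD, n = 3, adjusted p = 3.88e-14), and 2.77, 2.68 and 2.65 with LPS and 2MA (mean 2.70 ± 0.06, a 6.50-fold rise, adjusted p = 4.68e-16). IFNG alone gave 1.79, 1.46 and 1.67 (mean 1.64 ± 0.17, adjusted p = 1.73e-09), and LPS alone 2.41, 2.26 and 1.79 (mean 2.15 ± 0.32, adjusted p = 4.47e-13). Every one of these 12 sets was above 1, and 2MA alone lay between -0.06 and 0.28 at 4 h. At 2 h the order was different: LPS with IFNG gave 1.75, 0.85 and 1.54 (adjusted p = 4.13e-08), IFNG 1.18, 0.51 and 0.56 (adjusted p = 0.00494, and 0.207 without set 1) and LPS 0.81, 0.01 and -0.41. Its ligand Il15 rose beside it at 4 h, by 3.69 ± 0.24 with LPS and IFNG, 4.06 ± 0.07 with LPS and 2MA, 2.27 ± 0.10 with IFNG and 3.50 ± 0.25 with LPS (SD, n = 3 each).

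Il7r, the specific chain of the receptor for IL-7, had 2.19, 1.51 and -0.70 at 4 h of LPS with IFNG (mean 1.00, adjusted p = 0.0136) and 1.43, 1.70 and -0.38 at 4 h of LPS (mean 0.92, adjusted p = 0.0291). In both groups sets 1 and 2 were high and set 3 was below 0. Without set 3 the means were 1.85 and 1.56, and without set 1 the adjusted p values were 0.646 and 0.404. At 1 and 2 h the Il7r means were 0.96 and 0.73 with LPS and 0.65 and 0.45 with LPS and IFNG. With LPS and 2MA they were 0.89, 0.62 and 0.18 at 1, 2 and 4 h. None of these passed. With sets of the same number and time as a block in limma, LPS at 1 h did pass (adjusted p = 0.0328).

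The 2 chains of the IL-10 receptor moved in opposite directions. Il10ra, which binds IL-10, rose with LPS and with IFNG, and Il10rb, a chain shared with the receptors of IL-22 and related cytokines, fell slightly where IFNG was given. Il10ra had 1.84, 1.01 and 1.51 at 2 h and 1.5, 0.95 and 2.31 at 4 h of LPS with IFNG (mean 1.58 ± 0.69 at 4 h, SD, n = 3, adjusted p = 3.8e-09), and 1.34, 0.94 and 1.78 at 4 h of LPS with 2MA (mean 1.35, adjusted p = 1.34e-07). IFNG alone gave 0.83, 0.80 and 0.77 on average at 1, 2 and 4 h, with adjusted p values of 0.00842, 0.0053 and 0.00287, none of which held without set 1 (0.117, 0.127 and 0.117). LPS alone gave 1.27, 0.77 and 0.89 at 2 h and 0.78, 0.31 and 1.35 at 4 h (mean 0.81 ± 0.52, adjusted p = 0.000623), and the 2 h call had an adjusted p of 0.0514 without set 1. Set 2 was the lowest at 4 h in each of these 4 treatments.

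Il10rb had -0.39, -0.64 and -0.11 at 2 h and -0.10, -0.46 and -0.70 at 4 h of LPS with IFNG (mean -0.42, adjusted p = 0.000687), and -0.36, -0.59 and -0.36 at 2 h of IFNG (mean -0.44, adjusted p = 0.0041). LPS alone gave 0.21, 0.08 and 0.04 at 2 h, which did not overlap the IFNG sets. Each Il10rb call was lost without some set: the adjusted p was 0.0543 without set 3 at 4 h of LPS with IFNG, 0.153 without set 2 at 2 h of LPS with IFNG, 0.22 without set 2 at 2 h of IFNG and 0.206 without set 1 at 4 h of IFNG. The ligand Il10 rose at 4 h by 3.58 ± 0.32 with LPS and IFNG, 2.22 ± 0.34 with LPS and 2MA, 0.72 ± 0.12 with IFNG and 2.68 ± 0.32 with LPS (SD, n = 3 each).

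Of the 6 tested members of the IL-1 and IL-18 receptor family, only 2 accessory chains changed in any group, beside 49.4% of all genes. They were Il18rap, which completes the IL-18 receptor, and Il1rap, which completes the IL-1 receptor. Il18rap had its largest means where IFNG was given, and these were highest at 2 h. Its response to IFNG alone was not called different between 1, 2 and 4 h in limma's F test. LPS with IFNG gave 1.73, 1.32 and 0.65 at 1 h, 1.73, 1.32 and 1.77 at 2 h (mean 1.61 ± 0.25, SD, n = 3, adjusted p = 1.91e-11) and 0.89, 0.41 and 1.40 at 4 h. IFNG alone gave 1.00, 0.87 and 0.64 at 1 h, 1.78, 1.48 and 1.23 at 2 h (mean 1.5 ± 0.28, adjusted p = 4.9e-10) and 0.77, 0.99 and 1.58 at 4 h. LPS alone gave 0.57, 0.82 and 0.38 at 2 h, so that at 2 h every set with IFNG was above every set with LPS alone. The means at 4 h were 0.90 with LPS and IFNG, 0.76 with LPS and 2MA, 1.11 with IFNG and 0.62 with LPS, all of which passed with its probes averaged. The 1 h response to IFNG had an adjusted p of 0.0931 without set 1. The probes of Il18rap differed in size, with 2.13 for 1 and 0.83 for the other at 1 h of LPS with IFNG, and 0.80 and 0.30 at 4 h of LPS. With the second probe alone the 4 h calls with LPS and 2MA and with LPS were lost, with adjusted p values of 0.139 and 0.357, as was the 1 h call with IFNG (0.318). Its ligand Il18 rose at 4 h by 2.35 ± 0.52 with LPS and IFNG, 1.48 ± 0.33 with IFNG and 2.65 ± 0.61 with LPS (SD, n = 3 each).

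Il1rap passed only in groups that held LPS. With 2MA alone its probes gave 0.67 and 0.37 at 2 h and 0.46 and 0.28 at 4 h, and their average did not pass. At 4 h it had 1.24, 0.76 and 0.83 with LPS and IFNG (mean 0.94 ± 0.26, SD, n = 3, adjusted p = 1.33e-06), and 2.21, 2.21 and 1.55 with LPS and 2MA (mean 1.99 ± 0.38, adjusted p = 2.04e-14). IFNG alone gave -0.11, 0.07 and 0.13, and LPS alone 1.63, 1.59 and 0.79 (mean 1.34 ± 0.48, adjusted p = 1.19e-09). The sets of LPS with 2MA lay above those of LPS with IFNG. They overlapped those of LPS alone, but each was above the LPS set of the same number. The ligand-binding chains did not pass in any group, with means from -0.05 to 0.20 for Il1r1, from -0.11 to 0.16 for the decoy Il1r2 and from -0.05 to 0.14 for Il18r1. The calls of Il1rap at 2 h, between 0.42 and 0.63 with LPS and with its combinations, were each lost without set 2, with adjusted p values of 0.375 for LPS, 0.111 for LPS with IFNG and 0.168 for LPS with 2MA.

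Of the 4 interferon receptors, Ifngr1 and Ifnar2 passed only as falls, Ifnar1 passed in both directions and Ifngr2 passed in no group. Among all genes 49.4% passed in at least 1 group. Ifngr1, the ligand-binding chain of the IFNG receptor, fell at 4 h to -0.60, -0.85 and -0.85 with LPS and IFNG (mean -0.77 ± 0.15, SD, n = 3, adjusted p = 2.95e-07) and to -0.58, -0.74 and -0.81 with LPS and 2MA (mean -0.71 ± 0.12, adjusted p = 1.36e-06). IFNG alone gave -0.02, -0.21 and -0.20, which did not pass, and LPS alone gave -0.46, -0.83 and -0.60 (mean -0.63 ± 0.19, adjusted p = 1.47e-05). At 4 h every set with LPS was thus below every set with IFNG alone. The means of its signalling partner Ifngr2 lay between -0.34 and 0.25.

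The chains of the type I interferon receptor gave small and mixed responses. Ifnar2 had -0.50, -0.51 and -0.68 at 2 h of LPS with 2MA (mean -0.56, adjusted p = 1.81e-05), -0.54, -0.31 and -0.41 at 2 h of 2MA (mean -0.42, adjusted p = 0.0122) and -0.45, -0.33 and -0.50 at 2 h of LPS (mean -0.43, adjusted p = 0.00104). The probes of Ifnar2 disagreed, with -0.99 for 1 and -0.13 for the other at 2 h of LPS with 2MA, and with the second alone that call was lost (adjusted p = 0.537). Ifnar1 rose with LPS and 2MA at 4 h, with 0.32, 0.56 and 0.55 (mean 0.48, adjusted p = 6.48e-06), and was lower at 2 h with LPS and IFNG (mean -0.26, adjusted p = 0.0181) and with IFNG alone (mean -0.30, adjusted p = 0.021). Without set 1 the adjusted p was 0.15 and 0.234 for the Ifnar1 falls, and 1 and 0.0507 for the Ifnar2 falls with 2MA and with LPS. Ifnb1, a ligand of this receptor, rose at 4 h by 3.72 ± 1.12 with LPS and IFNG, 4.67 ± 0.61 with LPS and 2MA and 3.20 ± 0.94 with LPS (SD, n = 3 each).

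Of the 4 tested receptors of the IL-6, IL-11 and IL-12 group, Il6ra and Il12rb1 changed in at least 1 group, beside 49.4% of all genes. Il6ra, the IL-6 binding chain, fell with LPS: it had -0.90, -0.65 and -0.79 at 2 h of LPS with IFNG (mean -0.78 ± 0.12, SD, n = 3, adjusted p = 1.33e-06), -0.61, -0.70 and -0.80 at 4 h of LPS with 2MA (mean -0.70 ± 0.10, adjusted p = 4.6e-06) and -0.72, -0.37 and -0.78 at 4 h of LPS (mean -0.62 ± 0.22, adjusted p = 4.11e-05). IFNG alone gave -0.22, 0.09 and -0.04 at 4 h, above all those sets. The fall was carried by 2 of its 3 probes, which gave -0.87 and -1.07 at 4 h of LPS against 0.07 for the third. Its ligand Il6 rose at the same time by 5.15 ± 0.59 with LPS and IFNG, 5.50 ± 0.29 with LPS and 2MA and 4.50 ± 0.10 with LPS (SD, n = 3 each).

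Il12rb1, the chain common to the receptors of IL-12 and IL-23, fell with LPS and was slightly raised with IFNG. LPS with IFNG gave -0.77, -0.81 and -0.52 at 1 h (mean -0.70 ± 0.16, SD, n = 3, adjusted p = 1.39e-05) and -0.32, -0.46 and 0.00 at 4 h, which did not pass (mean -0.26). IFNG alone gave 0.58, 0.26 and 0.17 at 4 h (mean 0.34, adjusted p = 0.0433), and LPS alone -0.82, -0.86 and -0.30 (mean -0.66 ± 0.31, adjusted p = 1.01e-05). The IFNG sets at 4 h lay above all LPS sets. With 2MA alone the mean was 0.44 at 2 h (adjusted p = 0.0324). Without set 1 the rise with IFNG had an adjusted p of 0.596 and that with 2MA an adjusted p of 1.

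The receptors for IL-17, a cytokine of T cells, and for IL-5 gave small responses. Il17rc had 0.23, 0.26 and 0.32 at 4 h of LPS with IFNG (mean 0.27, adjusted p = 0.00211, and 0.0551 without set 3) and 0.64, 0.64 and 0.59 at 4 h of IFNG (mean 0.62 ± 0.03, SD, n = 3, adjusted p = 1.03e-08), against -0.07, 0.00 and 0.00 with LPS alone. The 3 groups did not overlap, and IFNG alone was the highest. Il17ra passed in 1 group, LPS with IFNG at 2 h, with 0.90, 1.10 and 0.39 (mean 0.80, adjusted p = 0.00149, and 0.0895 without set 1). Il5ra passed at 2 and 4 h of LPS with IFNG and at 4 h of LPS with 2MA, with means of 0.34, 0.27 and 0.25. None of these Il5ra calls held without set 1, with adjusted p values of 0.0843, 0.0837 and 0.25. The probes of Il5ra disagreed, with 0.59 for 1 and 0.09 for the other at 2 h of LPS with IFNG. With the second alone all of these calls were lost, as they were with a dye term in the fit.

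Of the 14 other tested members of the TNF receptor family, 5 passed in at least 1 group, beside 49.4% of all genes. Tnfrsf12a, Tnfrsf13b and Tnfrsf8 passed as rises, and Tnfrsf22 and Tnfrsf23 as falls. Tnfrsf12a, the receptor for TWEAK, rose at 1 and 2 h and did not pass at 4 h wherever LPS was given. LPS with IFNG gave 1.76, 1.16 and 0.95 at 1 h, 1.62, 1.95 and 1.80 at 2 h (mean 1.79 ± 0.17, SD, n = 3, adjusted p = 2.19e-06) and 0.09, 0.15 and 0.77 at 4 h. LPS alone gave 1.99, 1.73 and 1.25 at 1 h (mean 1.66 ± 0.37, adjusted p = 4.03e-05), 0.81, 1.53 and 1.54 at 2 h and -0.08, -0.15 and 0.11 at 4 h. IFNG alone had the opposite course, with -0.08, 0.63 and -0.31 at 2 h and 1.05, 1.46 and 1.06 at 4 h (mean 1.19 ± 0.23, adjusted p = 0.00162). 2MA alone gave 1.92, 1.31 and 0.61 at 2 h (mean 1.28, adjusted p = 0.00652, and 1 without set 1). The 1 h calls of Tnfrsf12a with LPS and IFNG and with LPS and 2MA had adjusted p values of 0.119 and 0.146 without set 1.

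Tnfrsf13b, a receptor for the B cell factors BAFF and APRIL, had a mean of 0.84 with LPS and IFNG (adjusted p = 0.000507), 1.47 with LPS and 2MA (adjusted p = 4.55e-08) and 1.15 with LPS at 2 h (adjusted p = 8.43e-06). The rise came from 1 of its 2 probes, which gave 2.86 with LPS and 2MA and 2.22 with LPS at 2 h, whereas the other gave 0.07 and 0.08. With 2MA alone the first probe gave 1.18 at 2 h and 1.135 at 4 h, and the average of the probes did not pass. With the second probe alone the response to LPS and IFNG at 2 h was -0.15, and none of its 8 calls passed. Which of the probes reports the gene was not tested.

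Tnfrsf22 and Tnfrsf23, decoy receptors for the death ligand TRAIL that are closely related neighbouring genes of the mouse, both fell at 4 h. Tnfrsf22 had -0.80, -0.62 and -0.60 with LPS and IFNG (mean -0.67 ± 0.11, SD, n = 3, adjusted p = 1.11e-05), -0.65, -0.94 and -0.56 with LPS and 2MA (mean -0.72 ± 0.20, adjusted p = 4.04e-06) and -0.71, -0.56 and -0.56 with LPS (mean -0.61 ± 0.08, adjusted p = 7.51e-05). Tnfrsf23 had -1.01, -0.62 and -0.50 with LPS and IFNG (mean -0.71, adjusted p = 0.000114), -0.77, -1.03 and -0.47 with LPS and 2MA (mean -0.76, adjusted p = 4.49e-05) and -0.54, -0.39 and -0.27 with LPS (mean -0.40, adjusted p = 0.0337, and 0.31 without set 1). All these sets were below 0. Because the genes are so alike, signal of 1 on the probe of the other was not tested. With 2MA alone Tnfrsf23 was at -0.59 at 1 h (adjusted p = 0.0261, and 1 without set 1). Tnfrsf8, known as CD30, passed in 1 group, LPS with IFNG at 4 h, with 0.57, 0.12 and 0.41 (mean 0.36, adjusted p = 0.00455, and 0.221 without set 1).

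The remaining 23 of the 47 tested receptors passed in no group in limma, and their means lay between -0.35 and 0.31. Of all genes tested, 49.4% passed in at least 1 group, so passing in none does not set these receptors apart. Of their 368 gene and group values, 12 had an unadjusted p below 0.05, spread over 9 receptors. They were Il2ra, Il2rb, Il9r, Il21r, Il3ra, Il11ra2, Il12rb2, Il1r1, Il1r2, Il1rapl2, Il18r1, Il17rb, Il17rd, Ifngr2, Tnfrsf17, Tnfrsf10b, Tnfrsf21, Tnfrsf25, Tnfrsf4, Tnfrsf11a, Tnfrsf11b, Tnfrsf18 and Tnfrsf19. They include receptors known mainly from lymphocytes (Il2ra, Il2rb, Il21r, Tnfrsf4, Tnfrsf18) and Tnfrsf11a, known as RANK, through which macrophage-lineage cells become osteoclasts. With sets of the same number and time as a block in limma, Tnfrsf11a passed as a fall at 4 h of LPS (-0.27, adjusted p = 0.0439). Ratios do not show whether these genes were expressed. Il27ra, Il1rl2 and Tnfrsf13c had too few values and were not tested.

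Adding IFNG to LPS raised Tnfrsf1a at 1 and 2 h and Il13ra1 and Il4ra at 2 and 4 h. It lowered Il13ra2 at 4 h and, with sets that differed from each other, at 2 h. Against LPS alone, 2 of 47 receptors differed at 1 h, 9 at 2 h and 3 at 4 h, beside 1.01%, 2.74% and 4.15% of all genes. The median difference at 4 h was -0.0312 over the receptors and -0.016 over all genes. At 1 h the 2 were Tnfrsf1a, higher by 1.61 (SE 0.16, adjusted p = 2.05e-09), and Il18rap, higher by 1.05 (SE 0.21, adjusted p = 0.00195, and 0.471 without set 1). At 2 h Tnfrsf1a was higher with LPS and IFNG by 1.82 (SE 0.16, adjusted p = 6.3e-11) and Il13ra1 by 1.51 (SE 0.19, adjusted p = 6.47e-07), and both held without each set. Il4ra, Il15ra, Il18rap and Il17rc were also higher at 2 h, by 1.28, 1.25, 1.02 and 0.55, while Il13ra2, Il10rb and Ifnar1 were lower, with differences of -1.06, -0.49 and -0.44. At 4 h Il4ra (1.63, SE 0.31, adjusted p = 0.000579) and Il13ra1 (0.84, SE 0.19, adjusted p = 0.00456) were higher, and Il13ra2 was lower (-1.43, SE 0.25, adjusted p = 0.000154). Without set 1 these 3 had adjusted p values of 0.0615, 0.124 and 0.0544, and at 2 h Il4ra, Il18rap, Il13ra2, Il10rb and Ifnar1 had 0.432, 0.144, 0.404, 0.528 and 0.346. The 2 h differences of Il15ra and Il17rc had 0.231 without set 3 and 0.134 without set 2. For Il13ra2 at 2 h the difference was -0.57 without set 2 (adjusted p = 0.346), and its values in set 3 were nearly equal. Sets of the same number deviated together here, and in the paired fit, with the replicate block, 3, 12 and 9 receptors differed at 1, 2 and 4 h, beside 1.49%, 6.02% and 8.25% of all genes. The receptor added at 1 h was Ifnar2 (0.41, adjusted p = 0.0138), and those at 2 h were Ifngr2 (-0.40, adjusted p = 0.00638), Ifnar2 (0.38, adjusted p = 0.0134) and Il5ra (0.40, adjusted p = 0.0388). At 4 h those added were Tnfrsf1b (-0.55, adjusted p = 0.00732), Il10rb (-0.45), Il10ra (0.77, adjusted p = 0.00165), Tnfrsf1a (0.50), Il12rb1 (0.40) and Ifnar2 (0.32).

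Given alone, IFNG and LPS differed in both receptors for TNF at 1, 2 and 4 h and in Il13ra2 at 2 and 4 h. Between IFNG and LPS, 4 of 47 receptors differed at 1 h, 9 at 2 h and 11 at 4 h, beside 2.55%, 7.06% and 10% of all genes. The median difference at 4 h was -0.0317 over the receptors and 0.00895 over all genes. Tnfrsf1a was higher with IFNG by 0.97 at 1 h (SE 0.16, adjusted p = 6.48e-05) and 1.37 at 2 h (SE 0.16, adjusted p = 3.04e-08), and by 0.48 at 4 h (adjusted p = 0.0457, and 0.171, 0.068 and 0.52 without set 1, 2 and 3). Tnfrsf1b was lower with IFNG, by a difference of -0.90 at 1 h, -2.70 at 2 h and -3.20 at 4 h (SE 0.18, adjusted p = 3.65e-16 at 4 h). The receptors for TNF therefore differed between the stimuli in opposite directions at each time, although at 1 h the Tnfrsf1b difference had an adjusted p of 0.182 without set 2. Ifnar2 (0.61) and Il18rap (0.91) were higher with IFNG at 2 h, and Tnfrsf13b (-1.08), Il10rb (-0.55) and Ifnar1 (-0.48) were lower, none of which held without set 1, with adjusted p values between 0.0603 and 0.191. Il13ra2 was lower with IFNG by a difference of -1.82 at 2 h and -2.67 at 4 h (SE 0.25, adjusted p = 1.89e-10 at 4 h). At 4 h Il1rap was also lower with IFNG (-1.31, adjusted p = 1.17e-05), and Il12rb1 (1.00, adjusted p = 1.46e-05) and Il17rc (0.64, adjusted p = 9.55e-06) were higher, and these 3 held without each set.

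Tnfrsf12a changed sides between these stimuli: it was lower with IFNG by a difference of -1.97 at 1 h (SE 0.39, adjusted p = 0.000898) and -1.22 at 2 h, and higher by 1.23 at 4 h (SE 0.39, adjusted p = 0.0336). Without set 1 the adjusted p was 0.0539, 0.168 and 0.199. Il4ra was higher with IFNG at 4 h (1.17, SE 0.31, adjusted p = 0.00974, and 0.247 without set 1). Ifngr1 (0.48) and Il6ra (0.57) were also higher with IFNG at 4 h, with adjusted p values of 0.0394 and 0.0188, and 0.339 and 0.262 without set 1. In the paired fit, with the replicate block, 7 receptors differed at 1 h, beside 4.54% of all genes. Those added were Il7r (-1.41, adjusted p = 0.00122), Il13ra2 (-0.85) and Il18rap (0.65). At 4 h 15 receptors differed in that fit, beside 16.9% of all genes, and those added were Il7r (-1.19, adjusted p = 0.00268), Il10rb (-0.36, adjusted p = 0.0269), Il9r (0.37, adjusted p = 0.0357) and Ifnar1 (-0.29, adjusted p = 0.0485).

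Whether adding 2MA to LPS changed a receptor depended on the fit. Without the replicate block, 0 of 47 differed from LPS alone at 1, 2 or 4 h in limma, with 0, 1 and 6 at an unadjusted p below 0.05. Of all genes, 0.0776%, 0.0949% and 0.354% were called there. Sets of the same number deviated together in this comparison. In the paired fit, with the replicate block, 2 receptors were higher with LPS and 2MA at 4 h, beside 1.73% of all genes called: Il13ra1 by 0.68 (SE 0.17, adjusted p = 0.0356) and Il1rap by 0.65 (SE 0.16, adjusted p = 0.0291). Il1rap had 2.21, 2.21 and 1.55 with LPS and 2MA, and 1.63, 1.59 and 0.79 with LPS alone. These ranges partly overlapped, but every set was higher with LPS and 2MA than the LPS set of the same number. The median standard error of a difference was 0.159.

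The combined treatment was also set against the sum of the responses to IFNG and to LPS, which on the log2 scale is what multiplying their folds would give. At 1 and 2 h, 0 of 47 receptors departed from the sum in limma, with 2 and 5 at an unadjusted p below 0.05, beside 0.0776% and 0.371% of all genes called. At 4 h 3 receptors were below the sum, beside 1.86% of all genes below it and 2.71% that departed in either direction. Il15ra was at 2.32 with LPS and IFNG against a sum of 3.79, with departures of -1.39, -1.98 and -1.07 in the sets (mean -1.48, SE 0.30, adjusted p = 0.00169). Il13ra2 was at 0.94 against 2.07, with departures of -1.09, -1.10 and -1.21 (mean -1.13, SE 0.31, adjusted p = 0.0317). Tnfrsf1a was at 1.29 against 2.07, with departures of -0.94, -0.70 and -0.72 (mean -0.78, SE 0.20, adjusted p = 0.0146). All departures were below 0 in every set, but for Il13ra2 the combined response was also below LPS alone, whereas the means of Tnfrsf1a and Il15ra were above it, by 0.50 and 0.16. Without set 2 the Il15ra departure was -1.23 (adjusted p = 0.133). Without set 1 the departure was -1.15 for Il13ra2 (adjusted p = 0.613) and -0.71 for Tnfrsf1a (adjusted p = 0.352).

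In the paired fit, with the replicate block, 8 receptors departed at 4 h, beside 5.53% of all genes, adding Tnfrsf1b (-0.77, adjusted p = 0.00247), Ifngr2 (-0.49, adjusted p = 0.00542), Il13ra1 (-0.79), Il18rap (-0.83) and Il17ra (0.97). Of these 8, 7 were below the sum and Il17ra was above it.

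**Figure D4:**
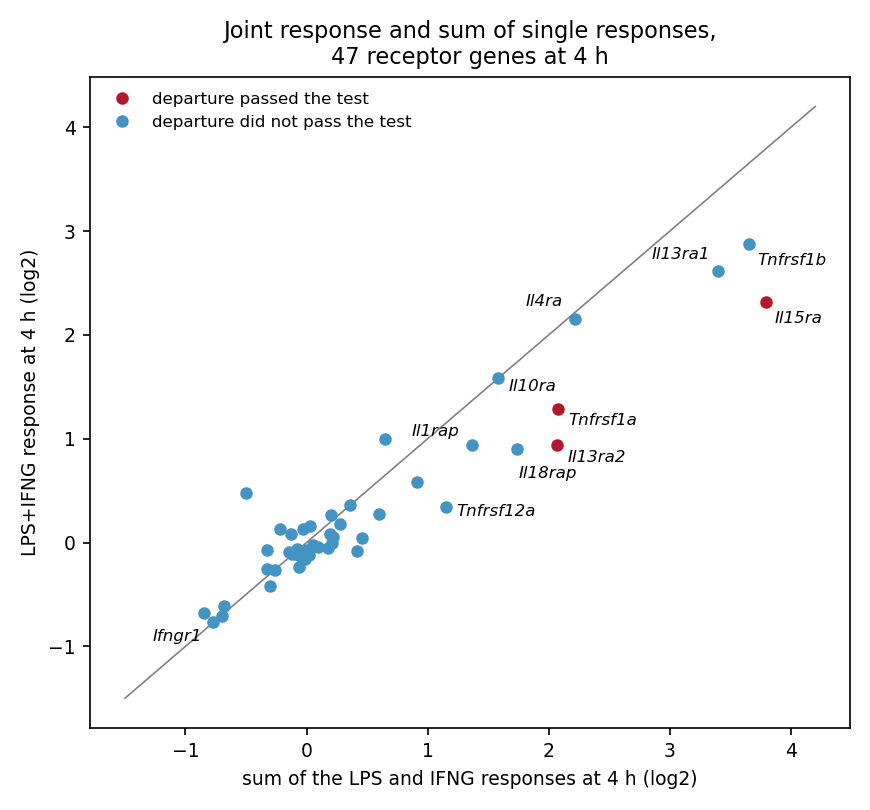
Mean log2 ratio at 4 h of LPS with IFNG (vertical axis) against the sum of the mean log2 ratios of IFNG and LPS given alone (horizontal axis) for the 47 tested receptors, with the line of equality. The receptors drawn in red, Il15ra (2.32 against 3.79), Il13ra2 (0.94 against 2.07) and Tnfrsf1a (1.29 against 2.07), lie below the line with an adjusted p below 0.05.

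Genes of the same pathways were counted at 4 h in the same way, beside 34% of all genes called with LPS and IFNG, 33.4% with LPS and 2MA, 12.3% with IFNG, 2% with 2MA and 28.6% with LPS. Among 20 tested receptor genes whose symbols the rule does not match, 9 rose and 5 fell at 4 h of LPS with IFNG, 7 rose and 4 fell with LPS and 2MA, 5 rose and 1 fell with IFNG, 2 rose with 2MA, and 7 rose and 5 fell with LPS. Their median was 0.0363 with LPS and IFNG. Fas, the death receptor for FasL, averaged 3.96 ± 0.55 with LPS and IFNG, 3.89 ± 0.31 with LPS and 2MA, 2.70 ± 0.17 with IFNG, 1.16 ± 0.61 with 2MA and 3.74 ± 0.47 with LPS (SD, n = 3 each). Csf2rb2, a beta chain of the IL-3 receptor, rose by 1.68 ± 0.22 with LPS and IFNG, 1.03 ± 0.18 with IFNG and 0.62 ± 0.31 with LPS. Of the 21 tested interleukin and interferon ligands, 11 rose and 1 fell with LPS and IFNG at 4 h, 12 rose with LPS and 2MA, 4 rose and 1 fell with IFNG, 1 rose with 2MA, and 10 rose and 1 fell with LPS, and their median was 0.244 with LPS and IFNG. Of the 13 tested TNF family ligands, 2 rose with LPS and IFNG, 6 with LPS and 2MA, 2 with IFNG and 4 with LPS, while with 2MA 0 passed in limma and 2 had an unadjusted p below 0.05. The median of these ligands was 0.104 with LPS and IFNG.

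Signalling genes below the receptors rose more often than they fell at 4 h. Of 15 tested JAK, STAT and SOCS genes, 10 rose with LPS and IFNG, 10 with LPS and 2MA, 8 with IFNG, 1 with 2MA and 10 with LPS, and their median was 0.804 with LPS and IFNG. Jak2, the kinase bound to the IFNG receptor, rose by 3.72 ± 0.33 with LPS and IFNG, 3.30 ± 0.38 with LPS and 2MA, 1.60 ± 0.35 with IFNG and 2.76 ± 0.40 with LPS (SD, n = 3 each). Socs1, which shuts off JAK signalling, rose by 3.55 ± 0.41 with LPS and IFNG, 2.69 ± 0.21 with IFNG and 1.68 ± 0.08 with LPS. Of 15 tested adapter and TNF receptor signalling genes, 9 rose and 3 fell with LPS and IFNG, 9 rose and 3 fell with LPS and 2MA, 6 rose and 1 fell with IFNG, 2 rose with 2MA, and 9 rose and 2 fell with LPS, and their median was 0.553 with LPS and IFNG. Traf1, an adapter of TNF receptor 2, rose by 2.05 ± 0.45 with LPS and IFNG, 1.25 ± 0.19 with IFNG and 2.46 ± 0.35 with LPS, and Cflar, which blocks caspase activation at death receptors, rose by 2.42 ± 0.11 with LPS and IFNG, 0.89 ± 0.20 with IFNG and 2.17 ± 0.18 with LPS.

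Markers of cell types were read for changes only, since ratios of treated to untreated cells cannot check the label of the cells. Of all genes, 49.4% changed in at least 1 of the 16 groups. Of 9 tested macrophage markers, 8 did so. At 4 h of LPS with IFNG 7 of them rose and 1 fell, beside 15.2% of all genes that rose and 18.8% that fell. The marker that fell was Csf1r, the receptor for the macrophage growth factor CSF1, with -1.45, -1.42 and -1.0 (mean -1.29 ± 0.25, SD, n = 3, adjusted p = 3.09e-13). Of 4 B cell, 3 NK cell and 4 fibroblast markers, 0 passed in limma in any group, with 1, 0 and 1 gene and group values at an unadjusted p below 0.05. Of 6 T cell markers 3 passed in some group, in 7 gene and group values, with means between -0.22 and 0.49. Ratios carry no level, so the presence of other cells was not tested.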

How the data were processed

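The measurements are the log2 ratios that the authors deposited for 96 two-colour arrays of RNA from RAW 264.7 cells. The background correction, normalization and scanner software behind these log2 values are not given in the sources used here, so intensities and levels could not be examined, and any compression of the ratios by that processing would make the folds smaller. Dyes were taken per the labels, and every array was turned to treated over untreated. Before turning, the 2 arrays of a set correlated between -0.784 and 0.396, and 10 of 48 pairs were above 0. A value of exactly 0, found for between 1277 and 2773 probes an array, was treated as missing.

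Of 16281 probes, 13738 have 1 gene on the platform annotation, 52 have several and 2491 have none. A set value needed both of its arrays, probes with a value in at least 2 sets of every group were kept (13698), and probes of a gene were averaged, which gave 11593 genes or unnamed probes. Of the receptors' set values 0.621% were missing. The 16 groups were fitted in 1 linear model over the 48 set values with limma 3.58.1 in R 4.3.3, with moderated tests and Benjamini-Hochberg adjustment over all genes for each comparison. The comparisons were each group against untreated cells, IFNG or a combination against LPS at the same time, the combination of LPS and IFNG against the sum, and an F test over times. The code was tested on simulated data. Figures were drawn with Python 3.11.15, pandas 2.3.3 and matplotlib 3.10.9.

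Receptors were given in full where they changed in at least 2 groups, or changed by at least 1 on the log2 scale in 1 group. The receptors, the lists (ligands of interleukin, interferon and TNF families, JAK-STAT and SOCS genes, adapters and TNF receptor signalling genes, receptors outside the naming rule, and markers of macrophages, T, B and NK cells and fibroblasts), and the tests were chosen with earlier results of these data known. Set numbers come from the sample titles. They were taken to pair samples where every correlation of deviations between groups of the same set number was above 0.1, which held for LPS with IFNG against LPS, LPS with 2MA against LPS, IFNG against LPS at 1 and 4 h, and the sum at 1 and 4 h (lowest 0.109). It did not hold for IFNG against LPS and the sum at 2 h (lowest -0.0316) or between times. The alternatives were stricter and no filters, zeros kept, centring of arrays, 1 probe per gene, 1 orientation, a dye term, the replicate block, only the groups compared, and each set left out. The number of arrays limits the precision.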

Additional observations from a re-analysis of the deposited data

Results flagged for a closer look

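The response of 11 receptors to LPS differed between 30 minutes, 1, 2 and 4 h in limma's F test, beside 16.7% of all genes. The adjusted p was 4.1e-17 for Tnfrsf1b, 1.05e-09 for Il15ra, 1.3e-09 for Il13ra1, 4.98e-09 for Il13ra2 and 4.27e-06 for Il1rap, all of which rose by 4 h. It was 0.00176 for Tnfrsf1a, 0.00178 for Tnfrsf12a, which had passed its peak by 4 h, and 0.0192 for Tnfrsf13b. Among the receptors that fell it was 0.00434 for Ifngr1, 0.0147 for Tnfrsf22 and 0.0459 for Il6ra. None of the last 6 held without set 1, where the adjusted p was 0.0917 for Tnfrsf1a, 0.0708 for Tnfrsf12a, 0.237 for Tnfrsf13b, 0.0863 for Ifngr1, 0.3 for Tnfrsf22 and 0.793 for Il6ra.

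The response of 5 receptors to IFNG differed between 1, 2 and 4 h, beside 3.74% of all genes. The adjusted p was 3.72e-06 for Il13ra1, 5.42e-05 for Il15ra and 8.49e-05 for Il17rc, and these held without each set. It was 0.0328 for Il4ra and 0.0353 for Tnfrsf12a, and without set 1 it was 0.855 and 0.268.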

How the results depend on the processing

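Of the 202 receptor calls over all comparisons, 89 held in each of the 12 alternatives. With centred arrays 201 held, with zeros kept 201, with no filter 202, with 1 orientation 201, with the dye term 199, with the replicate block 196, with 1 probe per gene 163, and with only the groups compared 153. With a value required in all 3 sets 169 held and 25 were not tested. No direction changed under these, except that with 1 probe per gene Tnfrsf13b turned at 2 h of LPS with IFNG (-0.146) and at 1 h of LPS with 2MA (-0.058). Without set 1, 2 or 3, 116, 153 and 163 calls held. The count of receptors called fell to 12 at 2 h of LPS with IFNG, 0 at 1 and 2 h of 2MA and 1 at 4 h of 2MA with only the groups compared, which has fewer samples, and to 3 at 1 h of LPS with 2MA with all 3 sets required. With the dye term it was 3 and 7 at 1 and 2 h of 2MA, and with the replicate block 0 at 1 h of 2MA. For LPS with IFNG against LPS it was 1 at 1 h with all 3 sets required, with 1 probe per gene or with only the groups compared, 3 at 2 h with only the groups compared, and 7 with the dye term and 9 with the replicate block at 4 h. For LPS with 2MA against LPS at 4 h it was 2 with the dye term and 2 with the replicate block. For IFNG against LPS it was 8 with the dye term and 7 with the replicate block at 1 h, and 17 with the replicate block at 2 h, where numbers did not pair. Against the sum it was 1 with the dye term and 1 with the replicate block at 2 h, and 1 with 1 probe per gene, 7 with the dye term and 8 with the replicate block at 4 h. The share of all genes called moved with the replicate block as well. At 4 h it went from 4.15% to 8.25% for LPS with IFNG against LPS, and from 0.354% to 1.73% for LPS with 2MA against LPS. It went from 2.55% to 4.54% for IFNG against LPS at 1 h, and from 2.71% to 5.53% against the sum at 4 h. Shares for the other settings, and with 1 set left out, are not given beside the counts. A shift in such a count therefore cannot be read as particular to the receptors. The cause of these shifts was not tested. With 1 set left out the counts ranged from 4 to 7 and 13 to 19 at 1 and 2 h of LPS with IFNG, 2 to 4 and 8 to 13 at 1 and 2 h of LPS with 2MA, 1 to 2 and 3 to 6 at 1 and 2 h of IFNG, 0 to 1, 0 to 2 and 0 to 3 at 1, 2 and 4 h of 2MA, and 3 to 4 and 5 to 13 at 1 and 2 h of LPS. They ranged from 1 to 2, 4 to 6 and 0 to 4 for LPS with IFNG against LPS, 1 to 3, 3 to 9 and 5 to 9 for IFNG against LPS at 1, 2 and 4 h, 0 to 1 and 1 to 2 against the sum at 2 and 4 h, 5 to 11 over the times of LPS and 3 to 4 over those of IFNG. Of the 30 counts, 17 moved by over 1.5 times in no alternative other than leaving out a set.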
